A study of Mus musculus with 6 samples.

Results

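The genes described here move salt and water across the lung epithelium: the 3 subunits of the epithelial sodium channel (Scnn1a, Scnn1b and Scnn1g), the beta 1 subunit of the sodium pump (Atp1b1), the chloride channel Cftr, the sodium-potassium-chloride cotransporter Slc12a2, and 3 regulators of the sodium channel (Nedd4l, Nedd4 and Prss8). They are 9 of 18193 genes named on the array. All probe sets that the platform annotation names for them were taken, 23 of 45101. A probe set is a group of short probes against 1 transcript that gives 1 value. Of the 23, 21 passed a filter on low signal and were tested among 27022 probe sets.

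The lungs came from Carm1 knockout mice at embryonic day 18.5, with 3 arrays, and from wild-type mice, with 3 arrays. Some knockout labels spell the gene CRAM1, which is taken here as Carm1. Carm1 encodes an arginine methyltransferase that serves as a coactivator of nuclear receptors. The study's design text places both genotypes at embryonic day 18.5, but the wild-type sample labels call the tissue neonatal, so genotype and a possible difference in stage cannot be told apart. The labels name no strain, deleted part of the gene or number of litters, and they do not say whether the 3 samples of a genotype came from 3 separate animals or from pools. Each genotype held arrays of both sexes and so more than 1 source, and the p-values reflect how far these samples spread.

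The fetal lung is filled with liquid that its epithelium secretes by moving chloride into the airspace, with Slc12a2 loading chloride at the base of the cell and Cftr among the channels that release it at the surface. Near birth the epithelium turns to absorption: sodium enters through the epithelial sodium channel, the sodium pump exports it at the other side, and water follows. Mice without Scnn1a die soon after birth because they cannot clear lung liquid. Glucocorticoids raise the channel's expression in the perinatal lung, proteases such as Prss8 activate it, and the ubiquitin ligase Nedd4l removes it from the membrane.

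Scnn1g and Scnn1b lie next to each other on mouse chromosome 7, with 1 other annotated gene between them and no protein-coding gene. The sequences around their starts are shown because these 2 neighbouring subunits were both lower in knockout lung. Each runs from 250 bases before the start to 50 after it on the plus strand of GRCm38.p6, from RefSeq, at chr7:121734229-121734528 for Scnn1g and chr7:121864788-121865087 for Scnn1b. Promoters were matched for 5 of the 9 genes.
Scnn1g: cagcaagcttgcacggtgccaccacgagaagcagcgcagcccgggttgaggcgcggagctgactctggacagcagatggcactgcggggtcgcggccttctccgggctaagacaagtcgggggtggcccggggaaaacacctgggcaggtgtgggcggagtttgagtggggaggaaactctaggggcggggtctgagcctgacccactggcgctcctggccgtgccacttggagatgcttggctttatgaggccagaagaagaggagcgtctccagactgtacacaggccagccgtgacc
Scnn1b: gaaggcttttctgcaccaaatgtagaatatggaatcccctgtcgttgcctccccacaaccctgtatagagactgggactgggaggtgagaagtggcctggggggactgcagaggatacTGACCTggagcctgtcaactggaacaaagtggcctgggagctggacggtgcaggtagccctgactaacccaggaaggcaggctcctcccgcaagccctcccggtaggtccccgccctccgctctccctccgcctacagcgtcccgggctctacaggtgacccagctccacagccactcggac

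Capitals mark matches, on either strand, to 5 motifs: the hexamer AGAACA bound by the glucocorticoid receptor, the receptor's full site (AGAACA and its inverted copy, 3 bases apart, so that these 2 overlap), the nuclear receptor hexamer AGGTCA, the AP-1 site TGANTCA and the TATA box TATAAA. The window of Scnn1b held 1 match, to AGGTCA on the minus strand at position −132 from the start, and the window of Scnn1g held 0. Of 32851 promoters of the same length, 16.3% held AGGTCA, 19.0% held AGAACA, 7.81% held TGANTCA and 13.6% held TATAAA. The full glucocorticoid receptor site was in 3 of them (0.00913%). These counts describe letters in 1 window and say nothing of binding elsewhere.

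On the arrays as a whole, the median signal lay between 105.8 and 121, and correlations between arrays ran from 0.937 to 0.969. The probe set of the targeted gene, Carm1, was at 395, 374 and 511 on knockout replicates 1 to 3, against 814, 678 and 865 on wild type replicates 1 to 3. The knockout level was 54.0% of wild type (95% confidence interval 41.7% to 70.0%, adjusted p = 0.105). That probe set may cross-hybridise, and whether it lies inside the deleted part is not known here. The median signal of the bacterial control probe sets for dap, lys, phe and thr was between 6.94 and 11.4 on the knockout arrays. On wild type replicates 1 to 3 it was 609, 4.29 and 379, so RNA of these controls was seen on wild type replicates 1 and 3 alone. Bacterial RNA below means these controls, and other bacterial controls were not examined. By Y-linked transcripts and Xist, the male arrays were knockout replicate 2 and wild type replicate 3, and the remaining 4 were female. Differences in subsets of arrays are given beside the genes on which these features bear.

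All 3 sodium channel subunits had lower mean signals in knockout lung, Scnn1a and Scnn1g by more than 2-fold. None passed a Benjamini-Hochberg adjusted p of 0.05 over all probe sets in limma, a linear model with moderated variance, where 0.0296% of tested probe sets passed in either direction and 0.0259% passed as lower. The tested probe sets of the pump subunit, the chloride transporters, Nedd4 and Prss8 lay between −0.29 and 0.21 on the log2 scale, each with an interval that included 0. For Nedd4l the probe sets disagreed.

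Scnn1a encodes the alpha subunit, which the channel needs to conduct. Its signal was 574, 855 and 364 on knockout replicates 1 to 3, against 1450.0, 1446 and 1252 on wild type replicates 1 to 3. Every knockout array lay below every wild-type array, and the knockout arrays were spread more widely than the wild-type arrays. The means were 598 ± 246 in knockout and 1383 ± 113 in wild type (SD, n = 3 each). The knockout level was 40.8% of wild type, with a 95% confidence interval from 27.0% to 61.8% (log2 −1.29, SE 0.26, adjusted p = 0.13). An exact permutation test, two-sided, gave p = 0.1, below which 3 arrays against 3 cannot go.

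Scnn1g encodes the gamma subunit, which is cleaved by proteases when the channel is activated. It was at 643, 872 and 368 in knockout and at 1452, 1274 and 1079.8 in wild type. Again the groups did not overlap, and knockout replicate 2 was the nearest to wild type while knockout replicate 3 was the farthest. The knockout level was 46.9% of wild type, with an interval from 30.3% to 72.6% (log2 −1.09, SE 0.28, adjusted p = 0.169). The exact permutation p was 0.1.

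Scnn1b encodes the beta subunit, whose overexpression in mouse airways dries the airway surface. Its signal was 223, 296 and 194 in knockout, against 588, 295 and 343 in wild type. The groups met at knockout replicate 2 and wild type replicate 2, whose signals were nearly equal, and the wild-type mean was raised by wild type replicate 1. The knockout level was 59.9% of wild type, with an interval from 38.6% to 92.8% (log2 −0.74, SE 0.28, adjusted p = 0.299, exact permutation p = 0.2). Without wild type replicate 1 the log2 difference was −0.44, and among the 4 arrays without bacterial RNA it was −0.34.

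**Figure D1:**
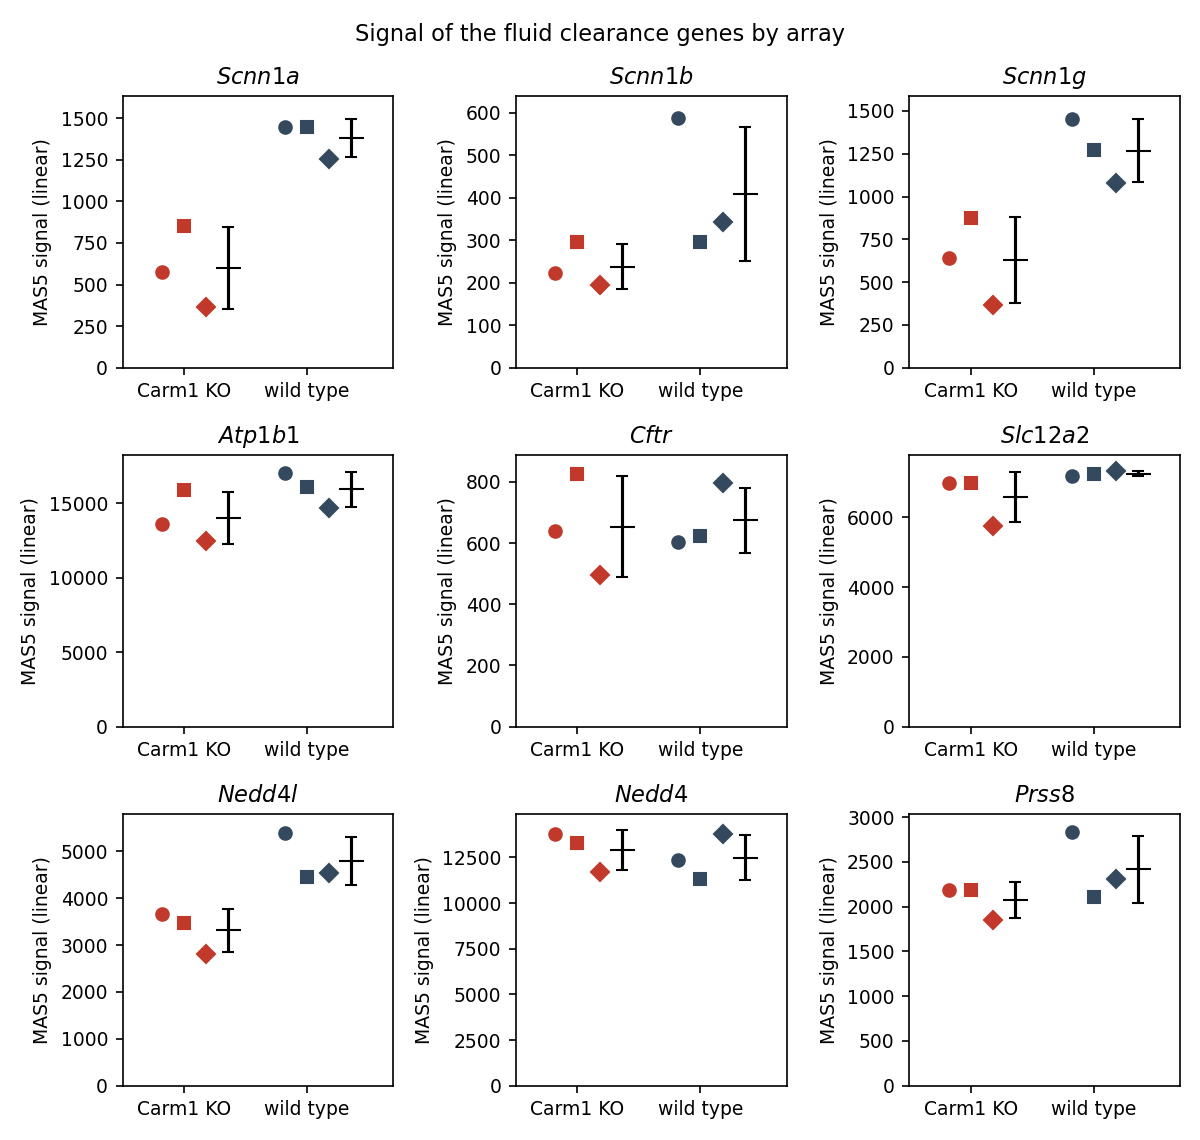
MAS5 signal on a linear scale (y axis) for the probe set of highest mean of each of the 9 genes. Red points are Carm1 knockout arrays and dark points wild-type arrays (circle, square and diamond for replicates 1, 2 and 3), and black bars are mean ± SD. Knockout and wild-type arrays are apart for Scnn1a, Scnn1g, Nedd4l and, narrowly, Slc12a2.

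The other subsets of arrays gave the following values for the channel. In the female arrays, 2 against 2, the log2 differences were −1.66 for Scnn1a, −1.48 for Scnn1g and −1.004 for Scnn1b. In the male pair, 1 array against 1 and so without a test, they were −0.55, −0.31 and −0.21. The differences were smaller in the male pair for all 3 subunits. The male difference minus the female difference was 1.11 for Scnn1a, 1.17 for Scnn1g and 0.79 for Scnn1b. No probe set passed the adjusted p for a difference between the sexes in limma with an interaction term, a fit in which the single male arrays are assumed to vary like the female ones. Among the 4 arrays without bacterial RNA, 3 knockouts and wild type replicate 2, the differences were −1.36 for Scnn1a and −1.11 for Scnn1g, about as large as over all arrays.

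The signals of Scnn1a and Scnn1g followed each other over the arrays. After each probe set was centred on its own mean, Scnn1g was the gene of closest pattern to Scnn1a, with a root mean square difference of 0.13 log2 units over 6 arrays. It was followed by Timp3, an inhibitor of metalloproteinases, at 0.14 and by Ackr2, a chemokine scavenging receptor, at 0.14. From the side of Scnn1g, Rcsd1 (0.12) and Timp3 (0.12) came first and Scnn1a was rank 3. Among 23423 ranked probe sets, Scnn1b was at rank 330 for Scnn1a and rank 256 for Scnn1g, while from the side of Scnn1b, Scnn1g was at rank 1337 and Scnn1a at rank 4056. The patterns closest to Scnn1b were those of probe sets named Traf1 (0.094), Ncl (0.10) and Stmn2 (0.13). The probe sets of Rcsd1, Ackr2 and Ncl were dim, with knockout means of 52.5, 68.3 and 65.5, near the filter cutoff of 59.7. The ranks are descriptions over 6 arrays, and the measure also rewards a like difference between the genotypes.

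Because an epithelial gene can also be low in lung RNA when there are fewer epithelial cells, markers of the epithelium were set beside the channel. In bulk RNA, fewer cells of a type and less RNA per cell cannot be told apart. Of 12 pan-epithelial markers such as Epcam, Cdh1 and the keratins, 10 had lower means in knockout and 2 higher, the median log2 difference was −0.09, and their summed signal was 45440 to 49390 in knockout and 46018 to 58893 in wild type. Of 10 alveolar type I markers, the genes of the flat gas-exchange cell, 10 were lower with a median of −0.61. Their summed signal was 78132 to 99234 in knockout and 116987 to 156234 in wild type. This list includes Aqp5, which is also described with the water channels below. Whether other lung cells also express the genes of this list was not examined. Of 9 alveolar type II markers 7 were lower with a median of −0.25, and the sums overlapped (116169.8 to 133773.5 in knockout, 120746 to 154239 in wild type). Airway secretory and ciliated markers leaned the other way, with 4 of 6 and 6 of 6 higher and medians of 0.10 and 0.21. No marker passed the adjusted p. An unadjusted p under 0.05, reached by 13.6% of all tested probe sets, was reached by 8 of 10 type I and 3 of 9 type II markers, all lower, and by 3 of 12 pan-epithelial markers, of which Epcam was higher (0.32). It was also reached by 2 of 6 ciliated markers and 1 of 6 secretory markers, all higher.

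Measured against the pan-epithelial mean of the same array, the log2 differences were −1.17 for Scnn1a, −0.97 for Scnn1g and −0.62 for Scnn1b. Against the type II mean they were −1.06, −0.86 and −0.51, and against the type I mean −0.58, −0.38 and −0.03. The differences of the channel were therefore nearly as large relative to the general epithelial markers, and smaller relative to the type I markers, near 0 for Scnn1b. Knockout replicate 3, which had the lowest Scnn1a and Scnn1g, also had the lowest type I mean (−0.67 on the centred log2 scale, against −0.24 and −0.16 on knockout replicates 1 and 2). That array also had the lowest means of the type II (−0.28), endothelial (−0.28) and leukocyte (−0.27) markers. It had the highest means of the airway secretory (0.53) and mesenchymal (0.28) markers. The part of the type I cells in the channel's difference was not tested. Among markers of other tissue, 6 of 8 mesenchymal markers were higher in knockout, with a median of 0.17. The largest were Dcn at 1.39, where the groups overlapped, and Col1a1 at 0.54, where they did not. Pdgfra (−0.26, no overlap) and Tcf21 (−0.17, overlap) were lower. All 5 cardiac muscle markers, genes also active in the walls of pulmonary veins, had higher means with a median of 1.01, but the groups overlapped at each. An unadjusted limma p under 0.05 was reached by 4 of 8 mesenchymal and 2 of 5 cardiac markers, of which Pdgfra was lower and the rest higher. Of all tested probe sets, 13.6% reached it. The part of these tissues in the channel's difference was not tested. The mean of the cardiac markers on the centred log2 scale was highest on knockout replicate 2 (1.66) and lowest on wild type replicate 3 (−1.54), the 2 male arrays.

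**Figure D2:**
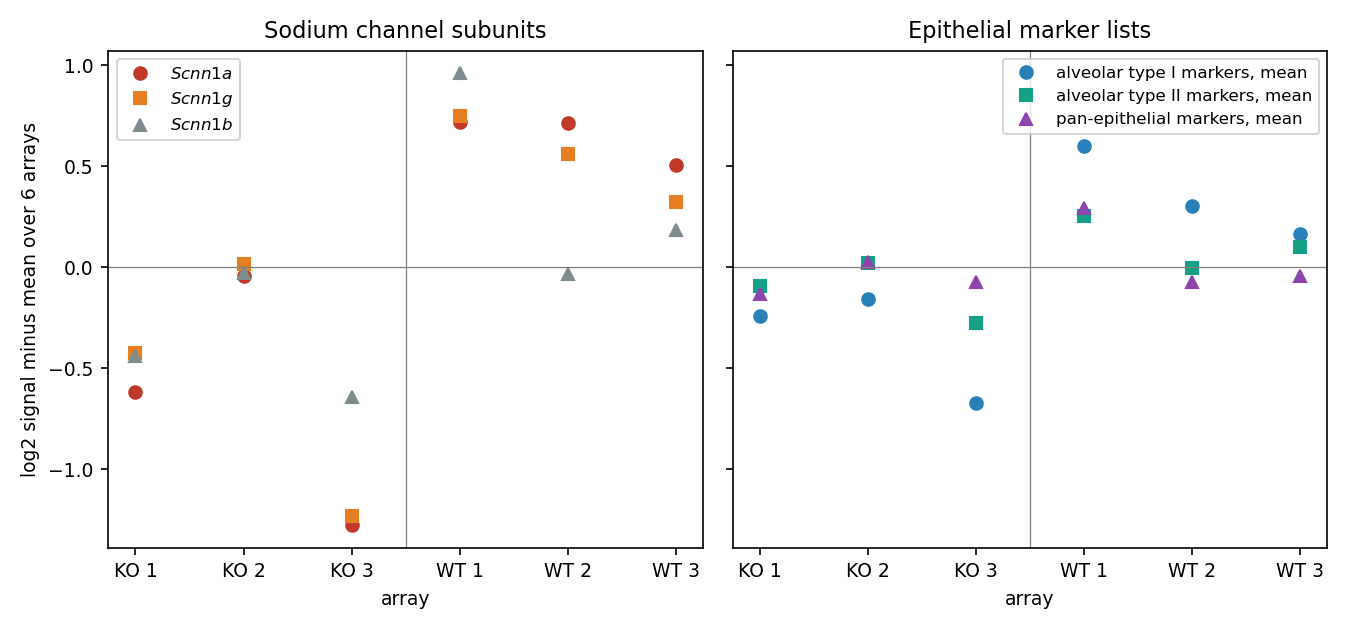
Log2 signal minus its mean over the 6 arrays (y axis) on each Carm1 knockout (KO) and wild-type (WT) array, for the 3 channel subunits (left) and for the means of 3 epithelial marker lists (right). Scnn1a and Scnn1g lie close together on every array. Both are lowest on knockout replicate 3, as are the type I and type II markers.

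Atp1b1 encodes the beta 1 subunit of the sodium pump, which carries the catalytic subunit to the membrane. At the probe set of highest mean the signal was 13601, 15873 and 12449 in knockout, against 17003, 16051 and 14676 in wild type. The groups overlapped, and the knockout level was 87.5% of wild type with an interval from 73.1% to 104.8% (adjusted p = 0.506). Of its 5 tested probe sets 4 were lower, with log2 differences from −0.29 to −0.13, and the dimmest was higher at 116% of wild type. The probe set at −0.20 may cross-hybridise. The groups overlapped at all 5.

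Cftr, the cyclic AMP-gated chloride channel of the airspace surface, was measured by 1 tested probe set at 638, 827 and 496 in knockout and at 604, 624 and 797 in wild type. That probe set may cross-hybridise. The groups overlapped widely, and the knockout level was 95.6% of wild type with an interval from 69.8% to 130.8% (adjusted p = 0.918). A second probe set of Cftr, at 44.0 ± 13.0 in knockout and 40.2 ± 12.2 in wild type (SD, n = 3 each), lay under the filter and was not tested. The groups overlapped there too.

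Slc12a2, the cotransporter that brings chloride into the epithelial cell, was slightly lower at each of its 3 probe sets. At the brightest, knockout arrays had 6984, 6989 and 5741 and wild-type arrays 7186, 7226 and 7319. The groups did not overlap there, although the knockout level was 90.3% of wild type with an interval from 76.9% to 106.1% (adjusted p = 0.572). At the other 2 probe sets the groups overlapped, at 86.7% and 83.7% of wild type.

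Nedd4l, the ubiquitin ligase that binds the tails of the channel subunits, was represented by 6 probe sets that did not move together. The brightest had 3670.3, 3472 and 2802 in knockout against 5384, 4463 and 4541 in wild type, with no overlap. Its knockout level was 68.9% of wild type, with an interval from 56.4% to 84.2% (log2 −0.54, SE 0.13, adjusted p = 0.153). A second probe set had 637, 706 and 410 in knockout against 708, 918 and 1003 in wild type, also with no overlap, at 65.6% of wild type (adjusted p = 0.287).

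At the remaining 4 probe sets of Nedd4l the groups overlapped. At 2 of them the log2 differences were 0.00017 and 0.16, with means of 307 ± 40.7 and 653 ± 139 in knockout and 307 ± 44.3 and 578 ± 63.8 in wild type (SD, n = 3 each). Another, which was dim, was at 82.2% of wild type with an interval from 43.2% to 157%. The last, at 50.4 ± 30.4 in knockout and 63.4 ± 2.94 in wild type (70.9% of wild type, interval from 31.4% to 160.5%), lay under the filter and was not tested. Which transcripts of Nedd4l each probe set measures was not examined.

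Nedd4, the relative of Nedd4l that has many other substrates, had the narrowest interval of the 21 at 1 of its 3 probe sets. At its brightest probe set the signal was 13787, 13267 and 11702 in knockout and 12339.5, 11326 and 13788 in wild type, with overlap. That narrow interval belonged to a probe set that had 12562, 12551 and 12669.8 in knockout against 12484, 12237 and 12405 in wild type. There every knockout array lay above every wild-type array, but by so little that the knockout level was 102% of wild type, with an interval from 89.6% to 116% (adjusted p = 0.923). The remaining probe set was at 110% with groups that overlapped.

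Prss8, a membrane-anchored serine protease that raises channel activity, had 2183, 2189.8 and 1845 in knockout against 2835, 2102 and 2313 in wild type. The groups overlapped, and the knockout level was 86.2% of wild type with an interval from 69.9% to 106.1% (adjusted p = 0.521). Among the 4 arrays without bacterial RNA the log2 difference was −0.025, against −0.21 over all arrays.

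**Figure D3:**
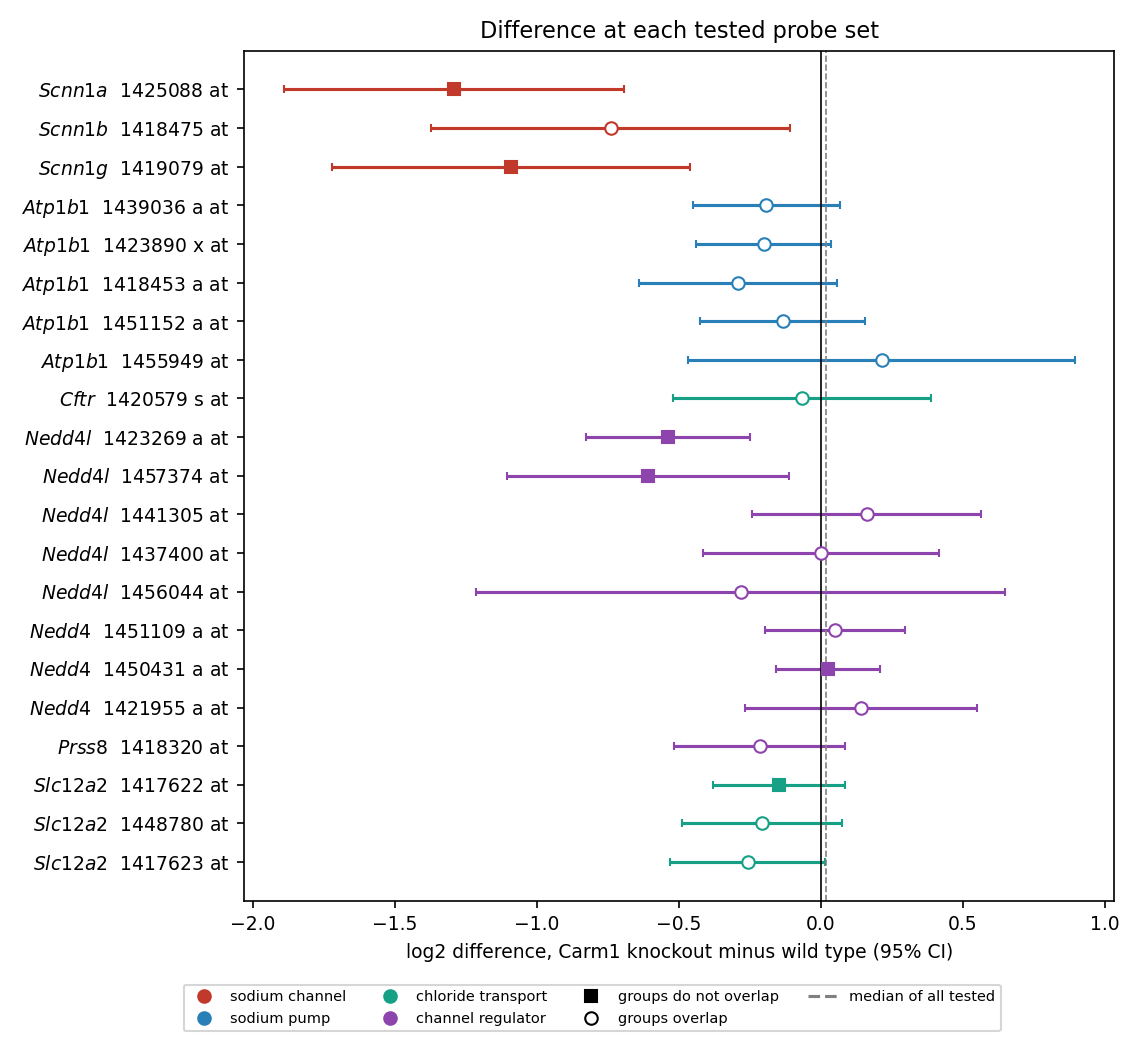
Log2 difference, Carm1 knockout minus wild type (x axis), with 95% confidence intervals for the 21 tested probe sets, coloured by role. Filled squares mark probe sets whose groups do not overlap, and the dashed line is the median of all tested probe sets (0.02). The intervals of the 3 channel subunits and of 2 Nedd4l probe sets lie below 0, and those of the other 16 include 0.

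Counted together, 15 of the 21 tested probe sets were lower in knockout and 6 higher, where 47.3% of all tested probe sets were lower. With 1 probe set per gene, 8 of 9 genes were lower, with a median log2 difference of −0.21 beside 0.02 for all tested probe sets. The exception was Nedd4, which was at 0.05 and turned to −0.0087 when arrays were centred on their medians. An unadjusted p under 0.05 was reached by 5 of the 21, all lower, where 6.31% of all tested probe sets did so in that direction. They were the probe sets of Scnn1a, Scnn1b and Scnn1g and 2 of Nedd4l. All knockout arrays were below the lowest wild-type array in 5 of the 21, where 9.36% of all tested did, and above them in 1, where 10.7% did. Probe sets of 1 gene share transcripts and are not independent of each other. Knockout replicate 3 was the lowest array at 11 of the 21, against 20.6% of all tested probe sets. Without it, the count at an unadjusted p under 0.05 was 3.

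Within each array, Scnn1a was also set against other members by the log2 ratio of their signals, which compares changes and not levels. The ratio of Scnn1a to Cftr averaged −0.18 ± 0.25 in knockout and 1.04 ± 0.34 in wild type (SD, n = 3 each), a difference of −1.23. The Cftr probe set in this ratio may cross-hybridise. For Scnn1a to Slc12a2 the difference was −1.15 and for Scnn1a to Atp1b1 it was −1.10. In all 3 ratios the knockout arrays lay below the wild-type arrays, with an exact permutation p of 0.1 each and 0.125 when adjusted over the 5 ratios compared. For Scnn1a to Scnn1g the difference was −0.20, also with no overlap and the same exact p. For Scnn1a to Scnn1b it was −0.55 with overlap (exact p = 0.3). These 5 ratios were chosen after the values of the genes were seen, and 3 arrays against 3 cannot reach a p of 0.05.

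**Figure D4:**
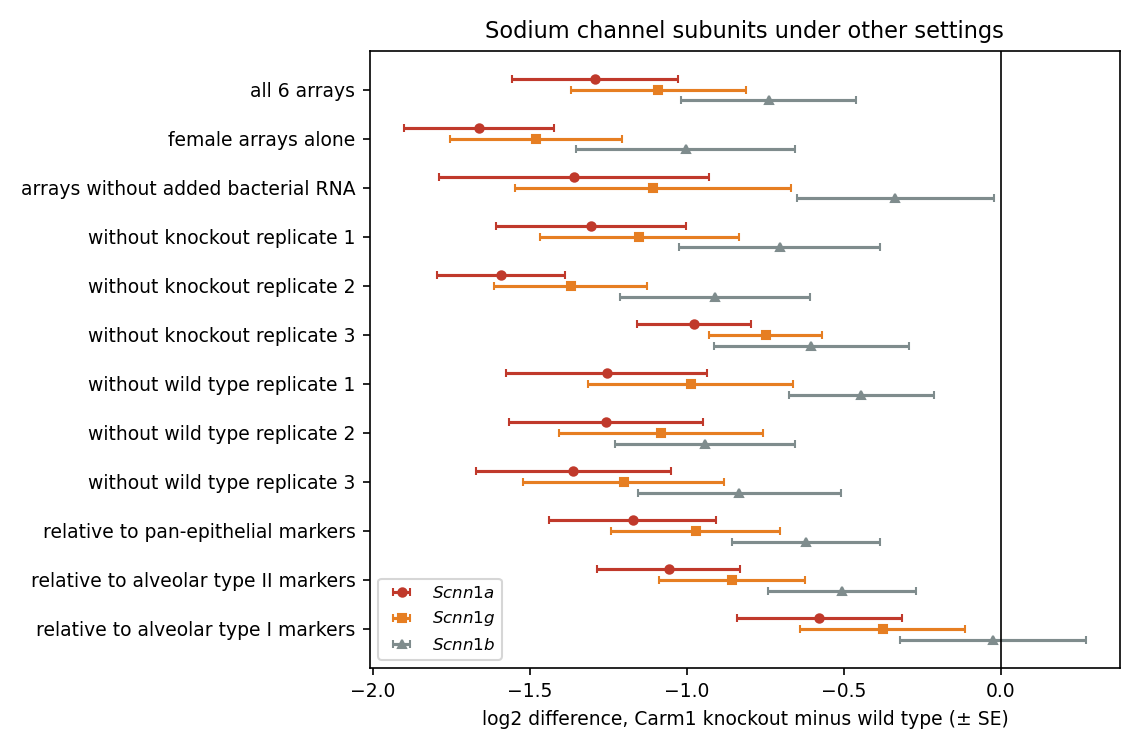
Log2 difference, Carm1 knockout minus wild type (x axis, ± SE), of the 3 channel subunits over all 6 arrays, in subsets of arrays, and relative to the mean of 3 marker lists. Scnn1a and Scnn1g stay below 0 throughout, and Scnn1b comes near 0 relative to alveolar type I markers (−0.03).

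Beyond the 9 genes, a wider list of 73 genes of lung fluid transport was examined, of which 63 were matched to a probe set and 51 passed the filter. It split about evenly, with 27 lower and 24 higher in knockout and a median of −0.03 (0.02 for all tested probe sets). None passed the adjusted p. At an unadjusted p under 0.05 there were 8 lower, where 6.31% of all tested probe sets were, and 3 higher, where 7.32% were. In either direction 13.6% of all tested probe sets reached it. The probe set of highest mean stands for each gene, and ± gives the SD of 3 arrays in the paragraphs that follow.

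The sodium pump's accessory FXYD proteins, small membrane proteins that tune the pump, differed in both directions, and of the 7 tested genes of the pump group 3 were lower and 4 higher. Fxyd5 had 1092, 1341 and 1189.8 in knockout against 1797, 1766 and 1573 in wild type, 1.42-fold lower with no overlap (adjusted p = 0.143). Fxyd4 was at 308 ± 53.8 in knockout and 481 ± 164 in wild type with overlap. Fxyd1, or phospholemman, had 1635 ± 48.8 in knockout and 1303 ± 194 in wild type and did not overlap. Fxyd3 averaged 3079 ± 1454 in knockout and 1914 ± 420 in wild type, a knockout spread wider than the difference. The pump's other beta subunits, Atp1b2 and Atp1b3, differed by 0.13 and −0.03 on the log2 scale.

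Of the genes for other sodium entry, 1 of 6 matched passed the filter. It was the glucose cotransporter Slc5a1, at 53.4 ± 13.8 in knockout and 72.4 ± 20.2 in wild type. Among the 7 proteases and inhibitors that act on the channel 4 were lower and 3 higher. The protease Tmprss4 had 264, 316 and 206 in knockout against 424, 322 and 354 in wild type, 1.41-fold lower with a narrow gap between groups (adjusted p = 0.34). Furin, which cleaves the channel before it reaches the surface, was at 567 ± 35.7 in knockout and 605 ± 45.7 in wild type with overlap. Prss22, a tryptase-like protease, was at 166 ± 49.8 in knockout and 115 ± 24.9 in wild type, and the protease inhibitor Spint2 at 7183 ± 573 in knockout and 6545 ± 839 in wild type. In both the groups overlapped, and the Spint2 probe set may cross-hybridise.

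Of 19 tested kinases, ubiquitin ligases and hormone pathway genes 10 were lower and 9 higher. Tsc22d3, a glucocorticoid-induced protein also known as GILZ that promotes channel activity in kidney cells, had 2133, 2778 and 2446 in knockout against 4740.2, 4042 and 4344 in wild type (log2 −0.84, adjusted p = 0.0852). A second probe set differed by −0.72, another, which may cross-hybridise, by 0.034, and the last lay under the filter. Sgk1, the kinase that keeps Nedd4l from the channel, had 1319, 1572 and 1524 in knockout against 2129, 1753 and 2205 in wild type (log2 −0.46, adjusted p = 0.183).

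Hsd11b1, the enzyme that regenerates active glucocorticoid, had 6623, 7388 and 5146 in knockout against 8100.0, 8498 and 8207 in wild type (log2 −0.39, adjusted p = 0.266). For Tsc22d3, Sgk1 and Hsd11b1 the groups did not overlap. The ubiquitin ligase Wwp2 was higher, at 622 ± 80.7 in knockout and 461 ± 110 in wild type with overlap (adjusted p = 0.348), and its other 3 tested probe sets differed by 0.27, 0.31 and 0.95. The receptors themselves, Nr3c1 for glucocorticoids and Nr3c2 for mineralocorticoids, differed by −0.10 and 0.05.

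Chloride and bicarbonate transporters were lower in 5 of 9 genes and higher in 4. At the probe sets that stand for the genes, 0 had an unadjusted limma p under 0.05. The calcium-activated chloride channel Ano1 was at 2938 ± 730 in knockout and 3316 ± 103 in wild type, at a probe set that may cross-hybridise. Its second probe set differed by −0.22 with no overlap. The anion exchanger Slc26a6 was at 179 ± 34.9 in knockout and 139 ± 26.6 in wild type. The scaffold proteins Slc9a3r1 and Slc9a3r2, which hold Cftr at the surface, differed by −0.14 and −0.08, and the 5 further probe sets of Slc9a3r2 ran from −0.44 to 0.31. Of 4 potassium channel genes 2 were lower and 2 higher. Kcne3, a subunit that pairs with Kcnq1 in secretory epithelia, had 72.6, 130 and 357 in knockout against 81.8, 73.8 and 48.6 in wild type, and the calcium-activated channel Kcnn4 had 359, 132 and 113 in knockout against 98.6, 122 and 74.7 in wild type. The higher mean of Kcne3 rested on knockout replicate 3 and that of Kcnn4 on knockout replicate 1, and both overlapped wild type. Kcnq1 and Kcnk5 differed by −0.11 and −0.08.

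Of the 4 tested water channels 2 were lower and 2 higher, and Aqp5 and Aqp3 had the largest differences among the 51 tested genes. Aqp5, the water channel of the type I cell surface, had 889, 894 and 455 in knockout against 3383, 2174 and 1767 in wild type (log2 −1.72, adjusted p = 0.0934). Aqp1, found in lung capillaries, had 4807, 5941 and 4039 in knockout against 11658, 9579 and 8776 in wild type (log2 −1.03, adjusted p = 0.0909). Aqp3, a water and glycerol channel of basal airway cells, was higher at 150, 167 and 404 in knockout, against 126, 96.6 and 45.3 in wild type (log2 1.40, adjusted p = 0.267), and its other 3 probe sets lay under the filter. The groups did not overlap in these 3 genes. Aqp4, found in airway cells, was at 697 ± 309 in knockout and 530 ± 68.6 in wild type with overlap. Endothelial markers were lower beside Aqp1 in 7 of 8 genes, with a median of −0.36. Of the 8, 6 reached an unadjusted limma p under 0.05, all lower, where 13.6% of all tested probe sets reached it in either direction. The summed signal of the endothelial markers was 16311 to 19592 in knockout and 21642 to 24478 in wild type. The type I markers given above were lower beside Aqp5, but Aqp5 is itself among them, so that list is not separate from it. The part of these cell types in the 2 differences was not tested.

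**Figure D5:**
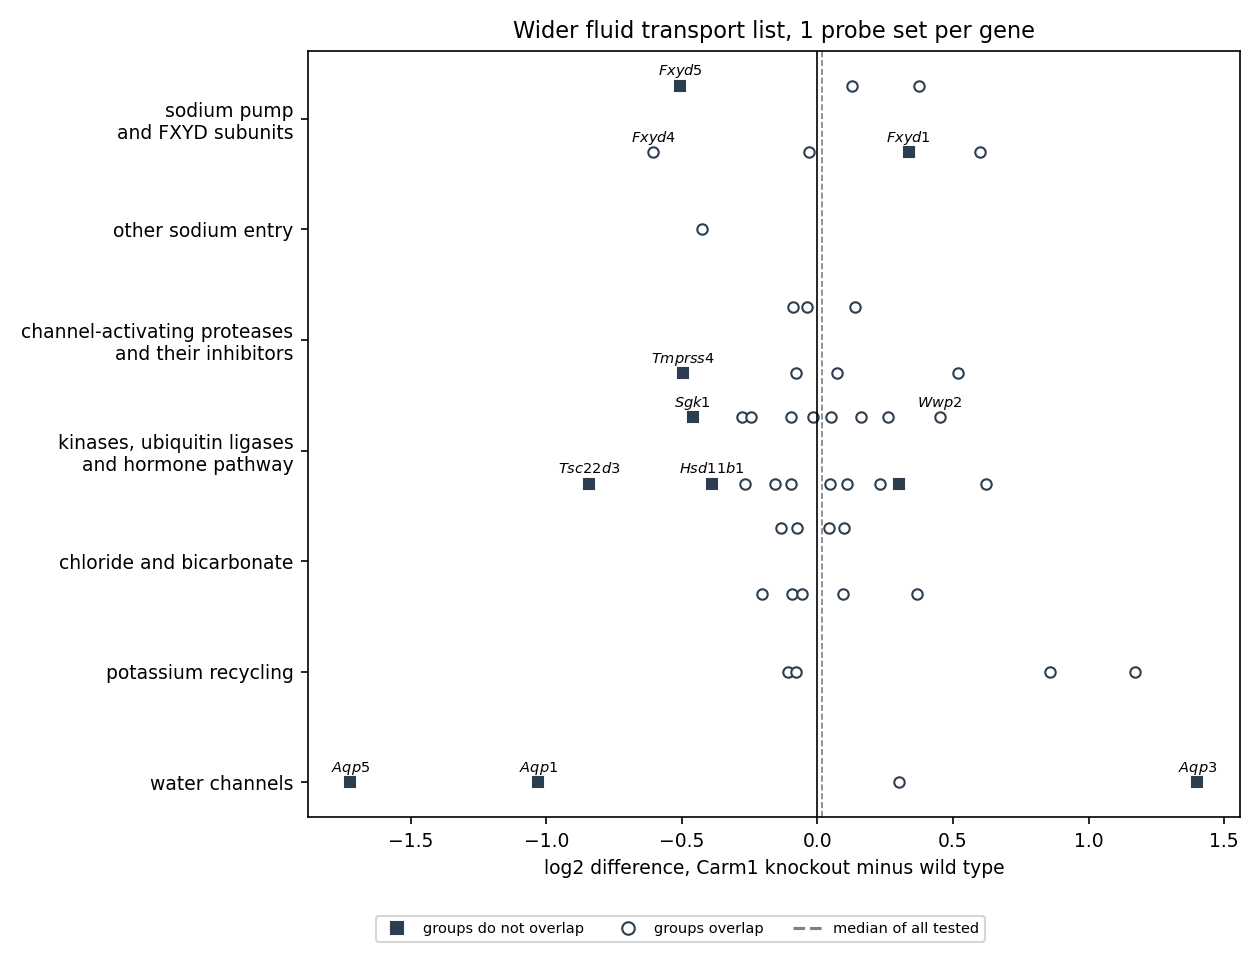
Log2 difference, Carm1 knockout minus wild type (x axis), for the 51 tested genes of the wider fluid transport list by role (y axis), 1 probe set per gene. Filled squares mark genes whose groups do not overlap, names are given at an unadjusted p under 0.05, and vertical offsets only separate the points. Aqp5, Aqp1 and Tsc22d3 lie farthest to the left and Aqp3 farthest to the right.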

How the data were processed

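Total RNA of mouse lung was labelled with biotin and hybridised to Affymetrix whole-genome mouse arrays, per the labels' protocols. The authors deposited 1 linear intensity per probe set, which the submitters' processing notes credit to MAS5, in a version not given in the sources used here. Each array's 2% trimmed mean was 500.0, and no further normalization was applied. Groups came from the sample descriptions. No value was 0 or below, and log2 was taken with no pseudocount. Leaving aside 64 controls, probe sets with a mean log2 over the 40th percentile, equal to a signal of 59.7, were tested with limma 3.58.1 in R 4.3.3 (eBayes with trend, two-sided). P was adjusted by Benjamini-Hochberg over 27022 probe sets. Percentages of wild type are ratios of geometric means, and ± is the SD of linear signals over 3 arrays.

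Symbols came from the platform annotation, updated through gene IDs in a RefSeq table of GRCm38.p6. A single symbol was found for 34945 probe sets, several for 932 and none for 9160. The probe set of highest mean stands for a gene. Genes named from the wider list were up to 4 per role group of smallest p. Atp1b2, Atp1b3, Nr3c1 and Nr3c2 were added to these. The 3 closest patterns were named per channel subunit. The members and lists were chosen with earlier results of these data known. The fit was tested on simulated arrays of the same 27022 probe sets with 200 changed. There 0% of 1.5-fold, 28.8% of 2-fold and 60.1% of 3-fold changes passed the adjusted p. The simulated noise was normal and independent between probe sets, so these rates need not hold for the real arrays. The number of arrays limits the precision. Alternatives covered normalization, filter, pseudocount, variance model, each array left out, a replicate block, sex and bacterial control RNA, and marker means chosen after seeing the data.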

Additional observations from a re-analysis of the deposited data

Results flagged for a closer look

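At 4 of the 5 tested probe sets of Atp1b1, both female knockout arrays lay below both female wild-type arrays, while the male knockout array lay above the male wild-type array. The male difference minus the female difference on the log2 scale was 0.46 at the brightest probe set (0.11 in the male pair, −0.34 in females) and 0.38, 0.50 and 0.25 at the others. The difference between the sexes did not pass in limma with an interaction term (unadjusted p from 0.122 to 0.389, adjusted p of 1.00 each). Of 27022 probe sets 0 passed the adjusted p for that term, and 567 had an unadjusted p under 0.05. For the 3 channel subunits, which were lower in both sexes, the male difference minus the female difference was larger (0.79 to 1.17). Males were 1 array against 1, and the fit assumes that they vary like the female arrays. The 2 male arrays also had the highest and lowest means of the cardiac markers (1.66 on knockout replicate 2, −1.54 on wild type replicate 3). Bacterial control RNA was seen on wild type replicate 3, and on the female wild type replicate 1. The part of these features in the sex pattern was not tested.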

How the results depend on the processing

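Scnn1a kept its direction and stayed above an adjusted p of 0.05 in every alternative with a test (adjusted p from 0.0648 to 0.591, log2 from −1.66 to −0.58). It was −0.55 in the male pair and from −1.59 to −0.98 with 1 array left out. The adjusted p of 0.0648 was that relative to type I markers, where the unadjusted limma p was 0.038, against 0.00089 in the main fit. In that setting the type I mean was subtracted from all probe sets, so its adjusted p is not comparable with the others. Scnn1b and Scnn1g were lower in every alternative. No member probe set passed the adjusted p in the alternatives run over all members, which leave out the marker means. The members at an unadjusted p under 0.05, 5 of 21, became 3 with bacterial RNA as a term and 2 on the arrays without it, and 3 (without knockout replicate 3) to 7 with 1 array left out. The count of 8 over all probe sets became 0 without trend, 40 with robust variance, 4 with sex as a term, 0 in females alone, 2 with bacterial RNA as a term, 3 on arrays without it, and 0 to 13 with 1 array left out: 0 without wild type replicates 1 or 3 or knockout replicates 2 or 3, 13 without knockout replicate 1, and 2 without wild type replicate 2. With the replicate number as a block it was 0. Same-numbered arrays did not deviate together (correlations of −0.14, −0.38 and −0.0056), so no pairing by number was seen. With 3 arrays per genotype these correlations cannot exclude a pairing. The median of the wider list (−0.03) was −0.090 with median centring, 0.00054 with bacterial RNA as a term or on the arrays without it, and −0.046 to 0.019 with 1 array left out, where 0.019 was without knockout replicate 3. The member median ran from −0.34 to −0.13.

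Signs turned in small differences. Cftr ran from −0.25 to 0.12 with 1 array left out and was 0.037 with bacterial RNA as a term or on arrays without it, 0.060 without wild type replicate 3, with 0.12 when knockout replicate 3 was left out. One Atp1b1 probe set ran from −0.25 to 0.0020 and was above 0 when wild type replicate 1 was left out. The Nedd4l probe set at 0.00017 was −0.050 with quantile normalization, −0.059 with median centring, −0.0020 in females, −0.025 with bacterial RNA as a term or on arrays without it, −0.11 without the array of wild type replicate 1 and −0.10 without that of knockout replicate 2 (−0.11 to 0.099 over the 6 arrays). Others of Nedd4l were −0.081 in females and 0.061 with bacterial RNA as a term or on arrays without it. Those of Nedd4 were −0.029 without wild type replicate 1 (0.30 at the other end), −0.0080 with quantile normalization, −0.034 and −0.0087 with median centring and −0.017 without wild type replicate 2. The causes were not tested.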
